A study of Mirounga angustirostris with 8 samples.

Results

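The small subunit of the cytosolic ribosome binds the mRNA and reads its codons, and its proteins are coded by a set of RPS genes with RPSA, FAU and RACK1. These genes were examined in RNA sequencing libraries from the longissimus dorsi, a back muscle, of adult female northern elephant seals (NES). Members were the rows of the count table named RPSA, RACK1, FAU or RPS followed by a number, with or without a suffix letter, and with a summed count of at least 80. S6 kinase genes and mitochondrial ribosomal protein genes were left out. The rule gave 34 of 24342 named rows, which cover the known small-subunit proteins of mammals and the paralog RPS27L, and all 34 passed the filter on low counts. The pre-molt group (labelled early molt) held biopsies of seals at most 5 days on the beach, from seals 5572, 5842, 6762 and C497. The post-molt group (labelled late molt) held later biopsies, from seals 4448, 5572, 9678 and X410; over the whole study the second sampling came a mean of 34 days later, and the days of these 4 libraries are not given singly. Wild adult females made up both groups, and between the samplings the seals fasted and moved little. Only seal 5572 has a library at each time, so the groups were compared unpaired, and for the other seals time ashore and animal cannot be told apart. Per the study's methods, these libraries were selected from a larger set, 4 for each time, as those with the most uniquely aligned reads. The reason given was low quality of the input RNA of some samples. Ribosomal protein genes have many near-identical processed pseudogenes, to which reads can be lost, so the levels of single members are uncertain.

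Ribosomal protein mRNAs are known to be made and translated together. Most carry a run of pyrimidines at their very start, through which the nutrient-sensing kinase complex mTORC1 and the RNA-binding protein LARP1 set how much of them is translated and kept. A ribosome holds a single copy of each small-subunit protein, and protein made in excess of the others is degraded. In skeletal muscle, ribosome number is one of the limits on protein synthesis, which gives this gene set its interest in fasting and disuse. The levels of these mRNAs do not measure ribosome number or protein synthesis, and neither was measured in these libraries.

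Libraries held 30774895 to 61229829 counted reads, and single small-subunit genes held 264 to 175367 reads in a library, so counting error was small for every member. Markers of slow muscle fibers (8 of 9 matched and tested) summed to 46344 to 98183 CPM (counts scaled to libraries of one common size) pre-molt and 55310 to 78290 CPM post-molt, and 1 of the 8 was called higher by edgeR at an adjusted p under 0.05, the only call in any marker list. The defining myosin genes MYH7, MYH1, MYH2 and MYH4 could not be looked up by symbol. Among markers of other cells, those of fibroblasts (10 of 10 tested) summed to 439 to 1443 CPM pre-molt and 190 to 475 CPM post-molt, with 5 of 10 lower at an unadjusted p under 0.05, and none of them was at 0. Fast-fiber markers (8 of 11 matched and tested) summed to 8238 to 23426 CPM pre-molt and 4582 to 6960 CPM post-molt, with 4 lower at an unadjusted p under 0.05. Of all genes tested, 6.22% were lower at this p. In the fibroblast and fast-fiber lists pre-molt 5842 was the highest library and post-molt 4448 the lowest, which are also the extremes of the small-subunit genes. Pre-molt 5842 was also the highest library in the slow-fiber, macrophage and adipocyte lists, and post-molt 4448 the lowest in the Schwann cell list. In the endothelial, pericyte and smooth muscle, lymphocyte, satellite cell and Schwann cell lists, 5842 was not the highest. The part of cell makeup in the results below was not tested. Endothelial (457 to 597 and 421 to 473 CPM), pericyte and smooth muscle (86.0 to 190 and 106 to 232), macrophage (24.4 to 71.5 and 28.8 to 70.7), lymphocyte (3.09 to 8.57 and 3.71 to 15.8), adipocyte (731 to 920 and 438 to 858), satellite cell (93.7 to 120 and 116 to 131) and Schwann cell markers (74.5 to 93.8 and 46.6 to 68.6) are given as the range of their sum pre-molt and post-molt. Erythroid and keratinocyte markers were near or under the filter, with SLC4A1 and KRT10 at 0 in every library. In bulk muscle, fewer cells of a type and less RNA per cell cannot be told apart.

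Small-subunit genes took a smaller share of the reads post-molt. They held 1.66, 2.60, 1.58 and 1.62% of the counts in pre-molt libraries 5572, 5842, 6762 and C497, and 0.883, 1.21, 1.11 and 1.26% in post-molt libraries 4448, 5572, 9678 and X410. The groups did not overlap, with 1.86 ± 0.489% pre-molt and 1.12 ± 0.169% post-molt (mean ± SD, n = 4 each). Pre-molt 5842 stood above the other 3 pre-molt libraries and post-molt 4448 below the other 3 post-molt libraries. The large-subunit genes held 2.12 ± 0.487% and 1.37 ± 0.170%. Small-subunit counts per large-subunit count came to 0.859, 0.911, 0.862 and 0.865 pre-molt and 0.777, 0.823, 0.830 and 0.834 post-molt, in the same order of libraries. This ratio also did not overlap between the groups. It is a description of the 2 sums and carries no test, and it is weighted toward the members with the most reads. RPS2 alone held 16.3 to 20.3% of small-subunit counts pre-molt and 14.4 to 16.5% post-molt. A shift of the other members against the large subunit is therefore not shown by this ratio.

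**Figure D1:**
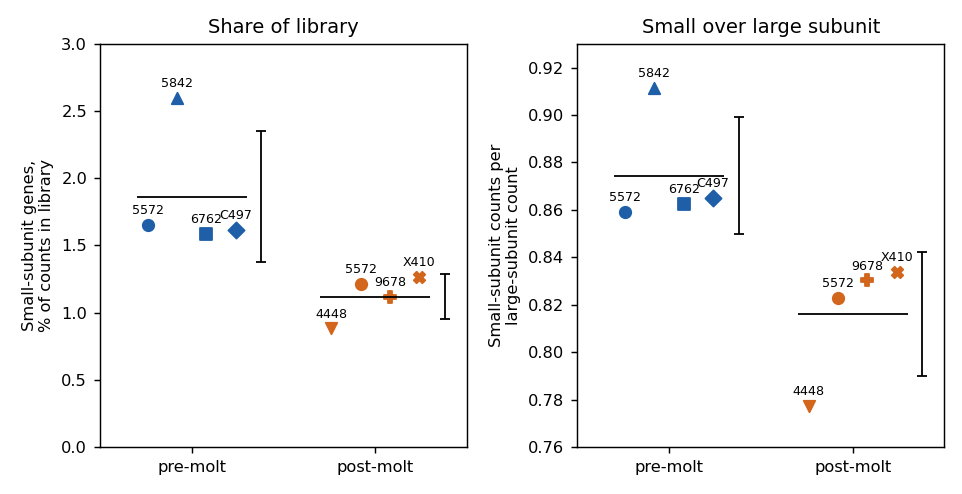
Left, percent of the counts in each library that fell on small-subunit genes; right, small-subunit counts per large-subunit count (axis not from 0). Each symbol is 1 library labelled by seal, lines are group means and bars are SD (n = 4); pre-molt 5842 (2.60%) is the highest and post-molt 4448 (0.883%) the lowest.

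Per gene, all levels below are CPM scaled by TMM (trimmed mean of M-values) factors, which correct for a few genes that take many reads, and they are not divided by transcript length, so they are compared between libraries and not between genes. Each fold change is a log2 value of post-molt against pre-molt, given ± its standard error (SE), from the quasi-likelihood test of edgeR with Benjamini-Hochberg adjustment over the 14315 genes tested. The fold change was below 0 in 34 of 34 members, against 53.6% of all genes tested, with a range of -1.31 (RPS19) to -0.38 (RPS27L) and a median of -0.87 beside -0.044 for all genes. In 12 members it was below -1 (9.24% of all genes). At an edgeR adjusted p under 0.05, 0 of 34 members were called, where 0.133% of all genes were called lower and 0.217% higher, and the adjusted p of members ran from 0.0629 (RPS2) to 0.569 (RPS27L). At an unadjusted p under 0.05, 31 were lower (6.22% of all genes) and 0 higher (5.20%). DESeq2, the tool named in the study's methods, called 15 lower at an adjusted p under 0.05 (3.16% of the genes it gave an adjusted p), limma-voom called RPS2 alone (0.272%), and neither called a member higher. In 25 members all 4 post-molt libraries lay below all 4 pre-molt libraries (5.11% of all genes).

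**Figure D2:**
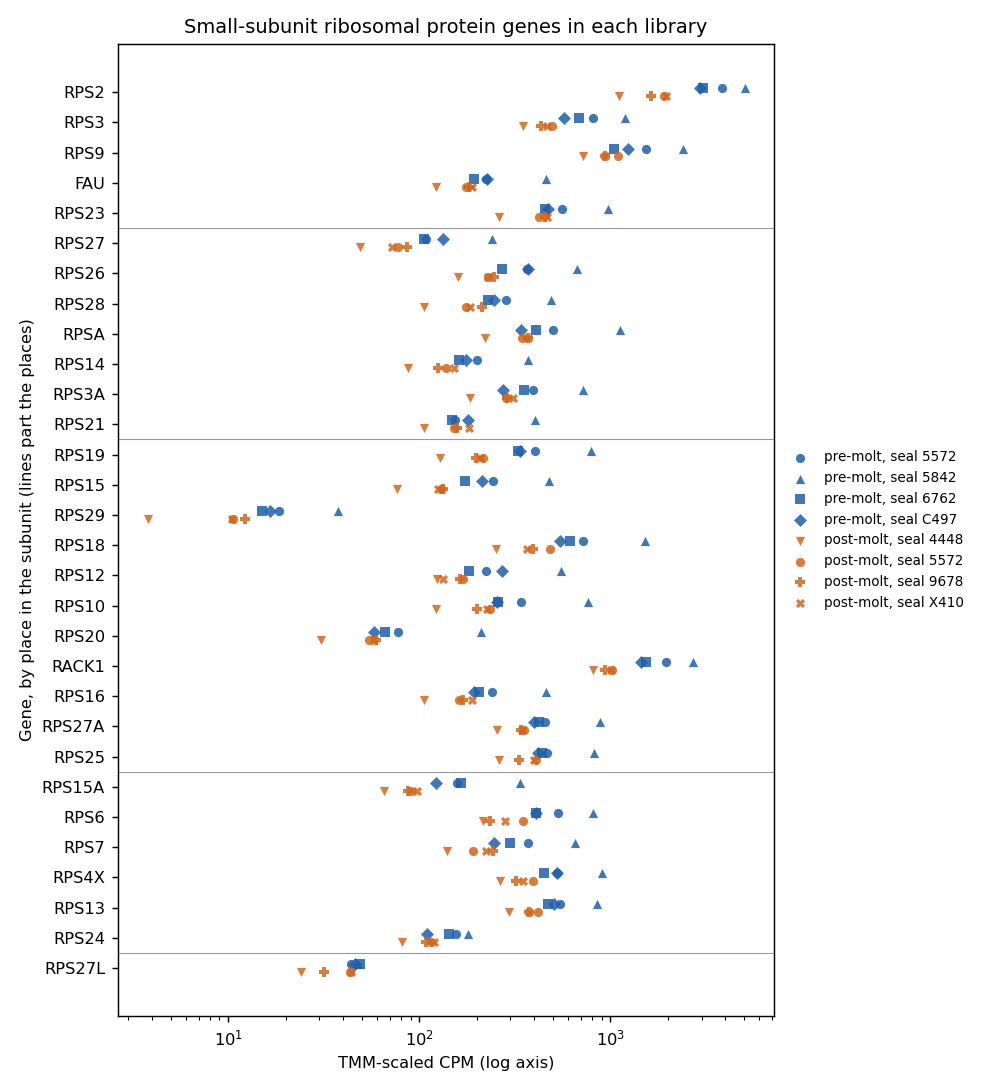
TMM-scaled CPM (log axis) of 30 of the genes in each library, grouped by place in the subunit. Blue symbols are the 4 pre-molt and orange symbols the 4 post-molt libraries, 1 symbol shape per seal; post-molt 4448 is the lowest library in all 30 and pre-molt 5842 the highest in 29.

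The same libraries were at the extremes in nearly every member. Pre-molt 5842 was the highest of the 8 libraries in 33 of 34 members (20.4% of all genes), at a median of 2.02 times the mean of the other 3 pre-molt libraries. Post-molt 4448 was the lowest in 34 of 34 (19.0% of all genes), at a median of 0.628 times the mean of the other 3 post-molt libraries. The TMM factor of 5842 was the lowest of the 8 (0.842) and that of 4448 the highest (1.14). A lower factor gives a higher CPM, so part of these ratios comes from the scaling. In unscaled shares of the counts, 5842 (2.60%) and 4448 (0.883%) were also the extremes. The coefficient of variation between pre-molt libraries had a median of 41.8% over members, and of 14.0% without 5842; post-molt it was 21.6%. Leaving out 5842 gave a median log2 fold change of -0.53, with 19 members lower at an unadjusted p under 0.05 (4.56% of genes) and 24 without overlap (6.59%), and DESeq2 then called 9 (2.05%). Without 4448 the median was -0.71, with 21 members at an unadjusted p under 0.05 (5.00%) and 25 without overlap (6.40%). Without 5842 and post-molt 9678, the libraries with the lowest share of uniquely aligned reads in each group per the study's alignment summary, the median was -0.53, with 16 (4.30%) and 24 (8.46%). Without 5842 and 4448, again 3 libraries against 3, the median was -0.38, with 13 at an unadjusted p under 0.05 (4.44%) and 25 without overlap (9.29%); the pair of 5842 and 4448 was chosen after seeing the data.

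**Figure D3:**
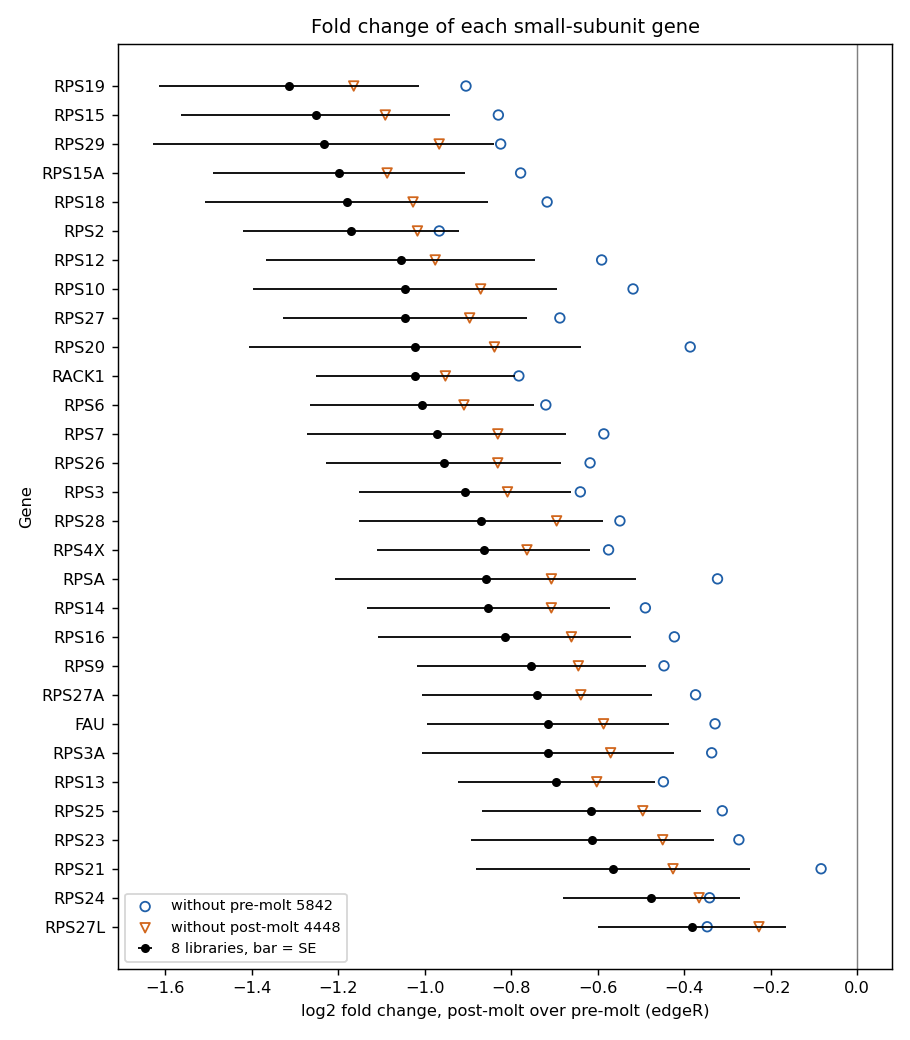
edgeR log2 fold change (post-molt over pre-molt) of 30 of the genes with all 8 libraries (black dots, bars are SE), without pre-molt 5842 (open circles) and without post-molt 4448 (open triangles). Every value is below 0; without 5842 the values move toward 0, most in RPS20, RPSA and RPS10 and little in RPS27L.

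For the accounts of single genes, libraries are listed as pre-molt 5572, 5842, 6762 and C497 and post-molt 4448, 5572, 9678 and X410, and members are grouped by where their protein sits in the subunit. At the mRNA entry channel and decoding center, 5 members (RPS2, RPS3, RPS9, RPS23 and FAU) had a median log2 fold change of -0.75, 5 of 5 were lower at an unadjusted p under 0.05 and 3 of 5 did not overlap. DESeq2 called 2 of 5 lower. Over all genes tested, 6.22% were lower at that unadjusted p and 5.11% were lower without overlap. DESeq2 called 3.16% lower of the genes it gave an adjusted p. RPS2, which lines the entry of the mRNA channel, was at 3846, 5032, 3060 and 2945 CPM pre-molt and 1114, 1910, 1633 and 1956 CPM post-molt. Its lowest pre-molt library was well above its highest post-molt library. The fold change was -1.17 ± 0.25 (SE), with the smallest adjusted p among members (edgeR 0.0629; DESeq2 2.41e-04), and -0.97 without 5842. RPS3, a neighbor of RPS2 at the channel that also acts in DNA repair, was at 807, 1193, 686 and 571 CPM and then 347, 493, 434 and 463 CPM. These groups did not overlap, and the fold change was -0.91 ± 0.24 (edgeR adjusted p = 0.127, DESeq2 0.00934). RPS23, whose conserved loop reaches into the decoding center, was at 555, 977, 453 and 472 CPM and then 263, 424, 453 and 468 CPM. Here post-molt 9678 and X410 lay at or above pre-molt 6762, and the fold change was -0.61 ± 0.28 (edgeR adjusted p = 0.434) and -0.27 without 5842. FAU, which codes for a ubiquitin-like protein fused to the ribosomal protein, was at 223, 460, 193 and 225 CPM and then 122, 176, 183 and 189 CPM. The groups came close without overlap, and the fold change of -0.72 ± 0.28 (edgeR adjusted p = 0.321) was -0.33 without 5842. RPS9 went from 1553 ± 591 to 921 ± 157 CPM (mean ± SD, n = 4), with post-molt 5572 above pre-molt 6762 and a fold change of -0.75, or -0.45 without 5842.

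On the platform and around the mRNA exit, 8 members (among them RPSA, RPS14, RPS21 and RPS26) had a median of -0.86, with 7 of 8 lower at an unadjusted p under 0.05, 5 without overlap and 2 (RPS26 and RPS27) called lower by DESeq2, of which 0 were called with 5842 left out (adjusted p = 0.0636 and 0.0648). Over all genes, the shares in the same order were 6.22%, 5.11%, 3.16% and, for DESeq2 with 5842 left out, 2.05%. RPSA, which is also known as a laminin receptor precursor, was at 499, 1123, 407 and 339 CPM pre-molt and 221, 343, 370 and 371 CPM post-molt. Pre-molt C497 lay below 3 of the post-molt libraries, and the fold change was -0.86 ± 0.35 (edgeR adjusted p = 0.344) and -0.32 without 5842. RPS26, which touches the mRNA leaving the subunit and is loaded by a chaperone of its own, TSR2, was at 365, 665, 272 and 369 CPM and then 159, 228, 246 and 228 CPM. No post-molt library reached a pre-molt one, and the fold change was -0.96 ± 0.27 (edgeR adjusted p = 0.152, DESeq2 0.021) and -0.62 without 5842. RPS14, whose loss of a gene copy underlies a form of myelodysplastic anemia, was at 200, 370, 162 and 175 CPM and then 86.9, 138, 125 and 152 CPM. The groups did not overlap, with a fold change of -0.85 ± 0.28 (edgeR adjusted p = 0.217, DESeq2 0.0598) and -0.49 without 5842 (DESeq2 adjusted p = 0.219). RPS21 was at 153, 401, 149 and 179 CPM and then 106, 152, 157 and 181 CPM. Apart from pre-molt 5842 and post-molt 4448 its libraries lay within the same range, its fold change was -0.56 ± 0.32 (edgeR adjusted p = 0.56), -0.084 without 5842 and 0.034 without 5842 and 4448. In the same group the fold changes of RPS27, RPS28 and RPS3A were -1.04, -0.87 and -0.72, and -0.69, -0.55 and -0.34 without 5842.

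The head and beak group was the largest, with 12 members (among them RACK1, RPS15, RPS19, RPS27A and RPS29) and a median of -1.03. All 12 were lower at an unadjusted p under 0.05, 11 did not overlap and 8 had a fold change below -1. Over all genes tested, these shares were 6.22%, 5.11% and 9.24%. DESeq2 called 5 of the 12 lower, against 3.16% of the genes it gave an adjusted p. RACK1, a scaffold for kinases that sits on the head of the subunit, was at 1956, 2710, 1545 and 1447 CPM pre-molt and 813, 1020, 931 and 1007 CPM post-molt. Its post-molt libraries were close together (943 ± 95.1 CPM, mean ± SD, n = 4) and all below the pre-molt ones. The fold change was -1.02 ± 0.23 (edgeR adjusted p = 0.0737, DESeq2 7.08e-04) and -0.78 without 5842. RPS19, the gene most often mutated in the inherited red cell failure Diamond-Blackfan anemia, was at 402, 793, 328 and 337 CPM and then 128, 215, 198 and 207 CPM. It had the lowest fold change of the set, -1.31 ± 0.30 (edgeR adjusted p = 0.0761, DESeq2 0.00157), and -0.90 without 5842, with no overlap between the groups. RPS15, whose tail reaches toward the decoding site, was at 243, 478, 173 and 213 CPM and then 76.3, 130, 132 and 126 CPM. All post-molt libraries were lower, with a fold change of -1.25 ± 0.31 (edgeR adjusted p = 0.0954, DESeq2 0.00519) and -0.83 without 5842. RPS27A, which codes for ubiquitin fused to a ribosomal protein and so supplies both, was at 455, 886, 425 and 399 CPM and then 257, 353, 341 and 345 CPM. Post-molt libraries other than 4448 were close to each other and just under the pre-molt ones, and the fold change was -0.74 ± 0.27 (edgeR adjusted p = 0.27) and -0.37 without 5842. RPS29, a small zinc-binding protein, had the fewest reads of the set and was at 18.4, 37.4, 15.1 and 16.5 CPM and then 3.78, 10.6, 12.3 and 10.5 CPM. The groups did not overlap, the lowest value was that of 4448, and the fold change was -1.23 ± 0.39 (edgeR adjusted p = 0.203, DESeq2 0.0575). Among the rest of the group, RPS20 (-1.02, and -0.39 without 5842) was the member with overlap, and RPS25 (-0.62, and -0.31 without 5842) had the fold change nearest 0.

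In the body of the subunit, 8 members (among them RPS4X, RPS6, RPS15A and RPS24) had a median of -0.88, 7 of 8 were lower at an unadjusted p under 0.05, 6 did not overlap and DESeq2 called 6 lower, or 3 (RPS4X, RPS6 and RPS15A) with 5842 left out. Over all genes, the shares in the same order were 6.22%, 5.11%, 3.16% and 2.05%. RPS6, the target of the S6 kinases that act under mTORC1, was at 533, 811, 409 and 409 CPM pre-molt and 216, 348, 233 and 279 CPM post-molt. All post-molt libraries were lower, with a fold change of -1.01 ± 0.26 (edgeR adjusted p = 0.106, DESeq2 0.00634) and -0.72 without 5842. RPS4X, an X-linked gene, was at 526, 908, 449 and 526 CPM and then 263, 393, 320 and 348 CPM. The groups did not overlap, and the fold change was -0.86 ± 0.25 (edgeR adjusted p = 0.152, DESeq2 0.0182) and -0.58 without 5842. RPS15A was at 157, 336, 165 and 122 CPM and then 65.5, 90.1, 87.6 and 96.8 CPM. Each post-molt value was below each pre-molt value, with a fold change of -1.20 ± 0.29 (edgeR adjusted p = 0.0878, DESeq2 0.00503) and -0.78 without 5842. RPS24, another Diamond-Blackfan gene, was at 155, 180, 144 and 110 CPM and then 81.4, 115, 108 and 119 CPM. Pre-molt C497 lay below 2 post-molt libraries, with a fold change of -0.48 ± 0.20 (edgeR adjusted p = 0.383).

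RPS27L, the paralog of RPS27 that p53 is known to induce, was at 43.8, 47.9, 49.0 and 45.8 CPM pre-molt and 24.0, 43.2, 31.9 and 44.1 CPM post-molt. It was the member without its highest level in pre-molt 5842, and its pre-molt libraries were close together (46.7 ± 2.31 CPM, mean ± SD, n = 4). Post-molt 5572 and X410 lay near or inside the pre-molt range, and the fold change of -0.38 ± 0.22 (edgeR adjusted p = 0.569) was the nearest to 0 of the set. RPS27 was at 109, 239, 106 and 134 CPM and then 48.8, 77.5, 86.6 and 71.7 CPM. Reads of RPS27L per read of RPS27 came to 0.403, 0.201, 0.464 and 0.342 pre-molt and 0.492, 0.558, 0.368 and 0.616 post-molt. The ranges overlapped, and the log2 ratio differed by 0.57 with an exact permutation p of 0.114 (two-sided, 4 libraries against 4, where the smallest p possible is 0.0286). Whether RPS27L differed from RPS27 was therefore not shown at this number of libraries.

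Seal 5572, the animal sampled at both times, had lower values post-molt in 34 of 34 members (49.6% of all genes), with a median log2 difference of -0.53 and a range of -1.01 (RPS2) to -0.0067 (RPS21); in 1, RPS2, it was below -1 (5.22% of all genes). The other seals, 3 libraries against 3, gave a median fold change of -0.97 and a range of -1.46 (RPS19) to -0.49 (RPS24), with 27 members lower at an unadjusted p under 0.05 (4.80% of genes) and 27 without overlap (9.42%). Members with larger differences in seal 5572 tended to be those with larger fold changes in the others (Pearson r = 0.62, Spearman rho = 0.64 over 34 genes, which are not independent and share their library scaling). RPS2, RACK1, RPS19 and RPS15 were low in both (-1.01, -0.94, -0.90 and -0.90 in seal 5572; -1.24, -1.06, -1.46 and -1.38 in the others). RPS27L and RPS21 were nearest 0 in seal 5572 (-0.021 and -0.0067) and at -0.51 and -0.72 in the others. One animal gives no test of the difference.

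**Figure D4:**
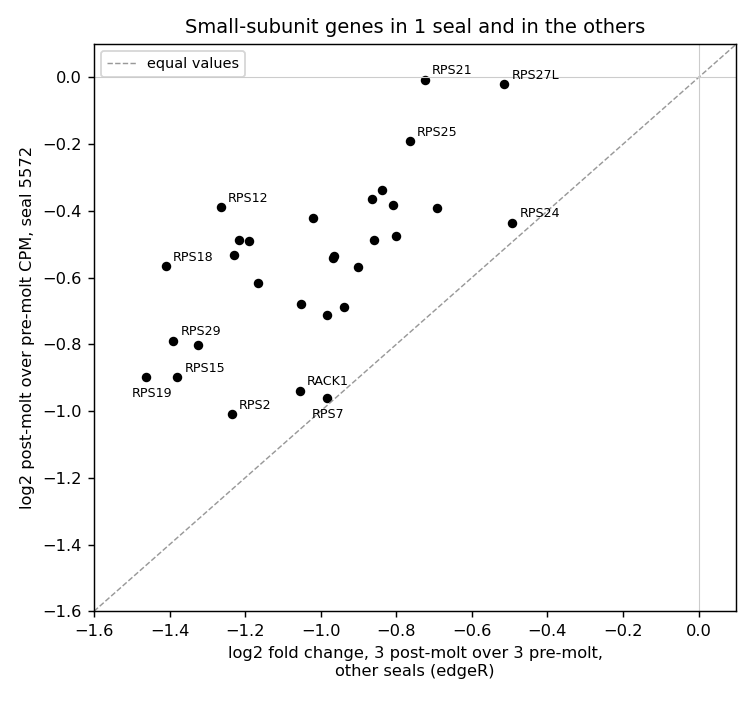
log2 post-molt over pre-molt CPM in seal 5572 (y axis) against the edgeR log2 fold change of 3 post-molt over 3 pre-molt libraries of the other seals (x axis), 1 dot per gene for 30 genes. All 30 dots are below 0 on both axes and lie above the dashed line of equal values.

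To see whether members kept their proportions, each gene was also fitted against the summed count of the small-subunit genes in place of the library size. On this scale 0 of 34 members were called in either direction (0.0349% of all genes were called lower and 4.30% higher), and 0 had an unadjusted p under 0.05; limma-voom on the same scale called 0. The lowest fold change of the share was -0.37 ± 0.24 (RPS19), and RPS27L was among the highest with 0.40 ± 0.31. Leaving aside the test, 8 members had shares that did not overlap between the groups. RPS19 took 2.12, 2.57, 2.13 and 2.21% of small-subunit counts pre-molt and 1.65, 1.80, 1.78 and 1.74% post-molt, and it was the member with a lower share and no overlap (0.384% of all genes). RPS25 took 2.46, 2.65, 2.84 and 2.75% and then 3.39, 3.41, 2.99 and 3.33%. It was 1 of 7 members with a higher share and no overlap, RPS3A, RPS23, RPS24 and RPS27A among them, against 27.2% of all genes, a background that is high because the sum itself was lower post-molt. RPS2, which alone held 16.3 to 20.3% of small-subunit counts pre-molt, held 14.4 to 16.5% post-molt, with overlap, and since shares sum to a fixed total a lower share of RPS2 raises the others. The SE of these share fold changes ran from 0.20 (RPS2) to 0.35 (RPS29). In this fit the spread of each gene was drawn toward that of all genes tested on the same scale, so small shifts of single members can be missed. No member was therefore shown to change apart from the set, and constant proportions were not shown either.

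**Figure D5:**
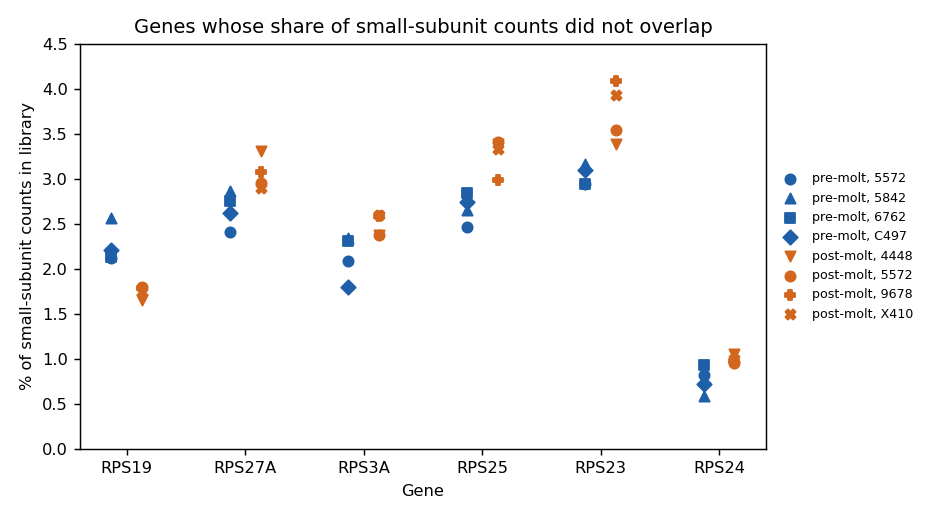
Percent of the small-subunit counts of each library held by 6 of the genes whose shares did not overlap between the groups. Blue symbols are pre-molt and orange symbols post-molt libraries; RPS19 is lower post-molt and the other 5 are higher.

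Most large-subunit genes also had lower values post-molt. Of 49 tested, paralogs included, 46 had a fold change below 0 with a median of -0.83, 40 were lower at an unadjusted p under 0.05, 30 did not overlap, with 0 called by edgeR and 25 (lower) by DESeq2. The 76 mitochondrial ribosomal protein genes, which serve the separate ribosome of mitochondria, had a median of -0.14, with edgeR calling 0, DESeq2 2 (lower), and 5 lower and 2 higher at an unadjusted p under 0.05. Over all genes tested, 6.22% were lower and 5.20% higher at an unadjusted p under 0.05, and 5.11% were lower without overlap. DESeq2 called 3.16% lower of the genes it gave an adjusted p. The counts of lower mitochondrial genes were near these shares. The differences between these medians and that of the small subunit were not tested.

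Genes that build and use the small subunit had medians nearer 0, a difference that was not tested. Over all genes tested, an unadjusted p under 0.05 was reached by 6.22% lower and 5.20% higher, and DESeq2 called 3.16% lower. Of 53 small-subunit maturation factors (all 53 tested), the median was -0.097, edgeR called 0 and DESeq2 5 (lower), and an unadjusted p under 0.05 was reached by 6 lower and 1 higher. UTP18, part of the early processing complex, was at 58.0, 73.9, 61.2 and 62.2 CPM pre-molt and 44.2, 44.7, 42.3 and 44.8 CPM post-molt, without overlap (-0.54 ± 0.17, edgeR adjusted p = 0.192, DESeq2 0.0222). AATF, another early factor, had a fold change of -0.76 ± 0.23 (edgeR adjusted p = 0.178, DESeq2 0.0364). Initiation factors that bind the small subunit had a median of -0.26 over 24 tested of 25 listed, with edgeR calling 0, DESeq2 5 (lower), and 8 lower and 1 higher at an unadjusted p under 0.05. EIF3K, a subunit of the factor eIF3, was at 463, 643, 380 and 387 CPM and then 174, 253, 211 and 219 CPM, and EIF3F, of the same factor, at 147, 200, 122 and 141 CPM and then 79.9, 81.1, 82.0 and 91.4 CPM. In both the groups did not overlap, and the fold changes were -1.13 ± 0.22 and -0.87 ± 0.19 (edgeR adjusted p = 0.0540 and 0.0700, DESeq2 7.66e-05 and 0.00106).

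Among 28 tested of 29 genes of mTORC1, the S6 kinases and regulators of ribosomal protein mRNAs, the median was 0.0070, edgeR called 0, DESeq2 1 in each direction, and 3 were lower and 3 higher at an unadjusted p under 0.05. Over all genes, 6.22% were lower and 5.20% higher at that p, and of 9993 genes DESeq2 called 316 lower and 335 higher. PDCD4, an inhibitor of translation that S6 kinases mark for breakdown, was at 37.3, 52.2, 48.1 and 58.3 CPM pre-molt and 26.6, 25.7, 25.6 and 33.4 CPM post-molt (-0.82 ± 0.20, edgeR adjusted p = 0.0922, DESeq2 0.00549). RPS6KA2, a kinase of the related RSK family, was at 35.1, 12.6, 14.0 and 17.7 CPM and then 45.9, 50.9, 46.6 and 23.9 CPM, with overlap (1.07 ± 0.34, edgeR adjusted p = 0.199, DESeq2 0.0460). For 23 genes of small-subunit ubiquitination and rescue of stalled ribosomes the median was 0.19, edgeR called 0, DESeq2 1 (higher), and 0 were lower and 3 higher at an unadjusted p under 0.05. HBS1L, which helps to free stalled ribosomes, was at 140, 98.8, 157 and 142 CPM and then 203, 174, 214 and 216 CPM (0.58 ± 0.19, edgeR adjusted p = 0.22, DESeq2 0.0217). OTUD1, a deubiquitinase, rested on post-molt 4448 and X410 (211 and 436 CPM, against 26.7 and 5.49 CPM in 5572 and 9678; 2.31 ± 0.92, edgeR adjusted p = 0.331, DESeq2 0.232). Of the ubiquitin precursor genes, 3 of 4 were matched by symbol, RPS27A among them. The polyubiquitin gene UBB, which codes for no ribosomal protein, had a fold change of -0.40 ± 0.19 (edgeR adjusted p = 0.463, DESeq2 0.170). Its groups did not overlap, at 678 to 895 CPM pre-molt and 481 to 652 CPM post-molt. As in most members, pre-molt 5842 was the highest library and post-molt 4448 the lowest.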

How the data were processed

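Per the labels and the study's methods, the authors made base calls with bcl2fastq 2.20, aligned reads of NES poly-A RNA with STAR, using the genome of the Hawaiian monk seal as reference, and deposited raw read counts per gene from the GeneCounts option of STAR, which takes uniquely aligned reads, with no scaling. Which strand was counted is not given in the sources used here. Rows without a gene name (7 of 24349, at most 0.0153% of a library) were left out. Genes were kept with filterByExpr (minimum count 10, total 15; 14315 of 19404 genes with a count), scaled by TMM and tested, post-molt against pre-molt, with edgeR 4.0.16 in R 4.3.3, at an adjusted p under 0.05; DESeq2 1.42.0 (on every gene with a count) and limma-voom 3.58.1 were alternatives. SE is the fold change divided by the root of its F. For seal 5572, log2 CPM used a prior count of 2. Library sizes were replaced by the small-subunit sum for the fit of shares. The fits were tested on simulated data. No 2 of the 28 library pairs were copies (chi-square over genes at least 105.4 times its degrees of freedom). p-values measure the spread between libraries within the groups, in which animal, biopsy and library preparation cannot be told apart. The libraries of seal 5572 in both groups were treated as independent. Members, lists, the grouping by place and the tests were chosen with earlier results of these data known. Values in every library are given for 12 members fixed for their role, the 5 with the smallest and the 5 with the largest p, and the 2 lowest and 2 highest in the fit of shares; of other lists, called genes or otherwise the 2 with the smallest p. RPS9 and UBB were added after their values were seen. Some of the genes counted are not reported here singly and were left out of the figures.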

Additional observations from a re-analysis of the deposited data

Results flagged for a closer look

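With levels of 34 genes in 2 groups, 68 sets of 4 libraries were screened for a library far from the other 3 (Dixon's 95% criterion, which chance passes in about 1 of 20 sets), and 12 passed, 9 for pre-molt 5842 and 3 for post-molt 4448; members share these libraries, so the 12 are not separate events. In pre-molt 5842 the CPM was 908 for RPS4X (449 to 526 in the other 3), 401 for RPS21 (149 to 179), 761 for RPS10 (255 to 340), 460 for FAU (193 to 225), 210 for RPS20 (58.2 to 77.1), 793 for RPS19 (328 to 402), 819 for RPS25 (419 to 465), 886 for RPS27A (399 to 455) and 37.4 for RPS29 (15.1 to 18.4). In post-molt 4448 it was 30.6 for RPS20 (54.8 to 59.5), 257 for RPS27A (341 to 353) and 76.3 for RPS15 (126 to 132).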

How the results depend on the processing

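The direction held in 679 of 680 values of single members over 20 alternatives; the exception was RPS21, at 0.034 without pre-molt 5842 and post-molt 4448. At an adjusted p under 0.05, edgeR called 0 members with all 8 libraries and with any 1 left out, 3 with no filter on low counts (RPS19, RPS15 and RPS15A), limma-voom called 1 and DESeq2 15, or 9 with 5842 left out. At an unadjusted p under 0.05 the 31 members became 19 to 32 with 1 library left out, 16 without 5842 and 9678 and 13 without 5842 and 4448. The median fold change ran from -0.99 to -0.53 with 1 library left out and was -0.38 without 5842 and 4448 (this pair, and DESeq2 without 5842, were chosen after the data had been seen). Members without overlap numbered 24 to 29 throughout, but groups of fewer libraries stay apart more easily. Over all genes, 5.11% were lower without overlap with 8 libraries and 9.29% without 5842 and 4448. Other normalizations (RLE, upper quartile, factors without ribosomal protein genes or without the 20 most abundant genes), a mean count of at least 50 and leaving out seal 5572 changed none of these member counts by over 1.5 times. Over all genes, edgeR called 19 lower and 31 higher, 97 and 129 with no filter, 2 and 3 without seal 5572, 2 to 21 and 7 to 28 with 1 library left out, and 0 and 0 without either pair above; limma-voom called 39 and 55, DESeq2 316 and 335, or 204 and 252 without 5842. The fit of shares was repeated with 2 other sums, each library left out and limma-voom, and 0 members were called in each. No paired analysis was possible because the groups share a single seal. The effect of depth on the calls was not tested.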
